A study of Mus musculus with 6 samples.

Results

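The angiopoietin family of the kidney was followed through 9 genes picked by symbol, among 23282 gene rows per library. They were 5 angiopoietin-like genes (Angptl7, Angptl1, Angptl2, Angptl4 and Angptl6), 2 angiopoietins (Angpt1 and Angpt2) and 2 receptors (Tek, also called Tie2, and Tie1). Each symbol had 1 row in every library. The measurements came from kidney of BALB/c mice (3 libraries) and of C57BL/6 mice, here B6 (3 libraries), both inbred laboratory strains with no treatment named in the labels. Neither age, sex nor substrain is stated in the labels. The study as a whole asks how the strains differ in kidney innate lymphoid cells, and these libraries compare the RNA of kidney tissue. Libraries were made from total RNA with a QuantSeq kit, which reads the 3′ ends of polyadenylated transcripts. Values are given in CPM (reads of a gene scaled to a common library total). Folds set BALB/c over B6 as differences of log2(CPM + 1), and adding 1 makes them too small for low genes.

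Angiopoietins are secreted ligands of the endothelial receptor tyrosine kinase Tek. Angpt1, made by perivascular cells, activates Tek and stabilises vessels, whereas Angpt2, made largely by endothelium, acts as an antagonist or a weak agonist depending on context. Tie1 is a related receptor that modulates Tek, and in the kidney this system maintains glomerular and peritubular capillaries. Angiopoietin-like proteins resemble angiopoietins in structure but do not bind Tek. Some of them, such as Angptl4 and Angptl8, inhibit lipoprotein lipase, the enzyme that releases fatty acids from circulating triglycerides.

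The members were chosen with the strain difference of Angptl7 known, so their strain differences are described and not tested. Of the 9 genes, 8 passed the filter on low values (a log2 value of at least 1 in at least 3 libraries) and Angptl1 did not. By the fit over all 13317 genes that passed it (limma, Benjamini-Hochberg adjusted p under 0.05), 2 of the 8 were called, Angptl7 and Angptl4, both higher in BALB/c. Over all genes 9.09% were called, 4.17% as higher and 4.93% as lower in BALB/c. Nothing is read from the members' count, since the contrast chose them. The libraries of the strains did not overlap in the same 2 members, as in 25.4% of all genes. The other 6 had folds of at most 0.37 in size, and their libraries overlapped.

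The start region of Angptl7, the member that differed most, is shown as the reference genome has it. It is the stretch from 250 bases before to 50 bases after the annotated start (RefSeq, GRCm38.p6, chr4:148500413-148500712, minus strand), printed 5′ to 3′. GRCm38 was assembled from C57BL/6J, so this is sequence of the strain with the lower level, and BALB/c sequence was not used here. Capitals mark TATTTAA, whose first base is 28 bases before the start, and GGAAG, whose first base is base 10 of the transcript. GGAAG is a longer form of GGAA, the core bound by ETS factors. GGAA itself also occurs unmarked elsewhere in the window and was not searched for.
Angptl7: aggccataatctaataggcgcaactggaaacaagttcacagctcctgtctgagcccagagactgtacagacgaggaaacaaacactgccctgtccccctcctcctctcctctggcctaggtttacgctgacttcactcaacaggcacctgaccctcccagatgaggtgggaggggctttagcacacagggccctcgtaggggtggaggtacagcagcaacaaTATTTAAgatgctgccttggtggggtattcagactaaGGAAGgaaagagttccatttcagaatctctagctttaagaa
Searched on both strands, TATTTAA occurs in 4.49% of 32544 promoter windows of this length and GGAAG in 71.3%. TATTTAA was added to the search after the sequence had been read. Also searched, with no match in this window, were TATAAA (13.6% of windows), AGAACA (a glucocorticoid receptor half-site, 18.9%), AGGTCA (a nuclear receptor half-site, 16.2%), ACGTG (the hypoxia response core, 19.7%), TGANTCA (AP-1, 7.79%), CCAAT (37.4%) and GATAAG (7.32%). CANNTG, the E-box, had 3 matches and occurs in 72.3% of windows. The window was 51.3% G and C, where the median window had 53%. The promoter table held 6 of the 9 members. Angptl4, Angpt1 and Angpt2 were not in it.

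Angptl7, a secreted protein best known from the cornea and the trabecular meshwork of the eye, had 345, 296 and 335 CPM in the BALB/c libraries, against 3.41, 4.33 and 5.05 CPM in the B6 libraries. Every BALB/c library was far above every B6 library, and the lowest BALB/c value was 58.6 times the highest B6 value. The means were 325 ± 26.0 CPM in BALB/c and 4.26 ± 0.818 CPM in B6 (SD, n = 3 each), a log2 fold of 5.96 ± 0.15 (SE), which ranked first among all genes that passed the filter. The gene was not silent in B6, where 119 reads were counted over the 3 libraries, against 9407 in BALB/c. Its spread on the log2 scale was small beside the difference, with an SD of 0.12 in BALB/c and 0.23 in B6. In a whole organ, fewer cells of a type and less RNA per cell cannot be told apart, and which kidney cells made this transcript was not tested.

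Angptl4, an inhibitor of lipoprotein lipase that fasting and PPAR nuclear receptors induce, had 35.03, 26.1 and 12.9 CPM in the BALB/c libraries, against 4.18, 4.03 and 3.81 CPM in the B6 libraries. The B6 libraries lay close together and the BALB/c libraries were scattered above them, with 2.71-fold between the highest and the lowest. The lowest BALB/c value was 3.09 times the highest B6 value. Means were 24.7 ± 11.1 CPM in BALB/c and 4.01 ± 0.186 CPM in B6 (SD, n = 3 each), a log2 fold of 2.25 ± 0.30 (SE) that ranked 25 among all genes that passed the filter. The log2 SD of Angptl4 was 0.70 in BALB/c and 0.05 in B6, where the median gene had 0.20 in BALB/c and 0.21 in B6. The B6 value rests on 34 to 40 reads in each of 3 libraries. So few reads and libraries leave that SD uncertain, and adding 1 makes it smaller. Of all genes, 96.1% had a smaller SD in BALB/c than Angptl4.

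**Figure D1:**
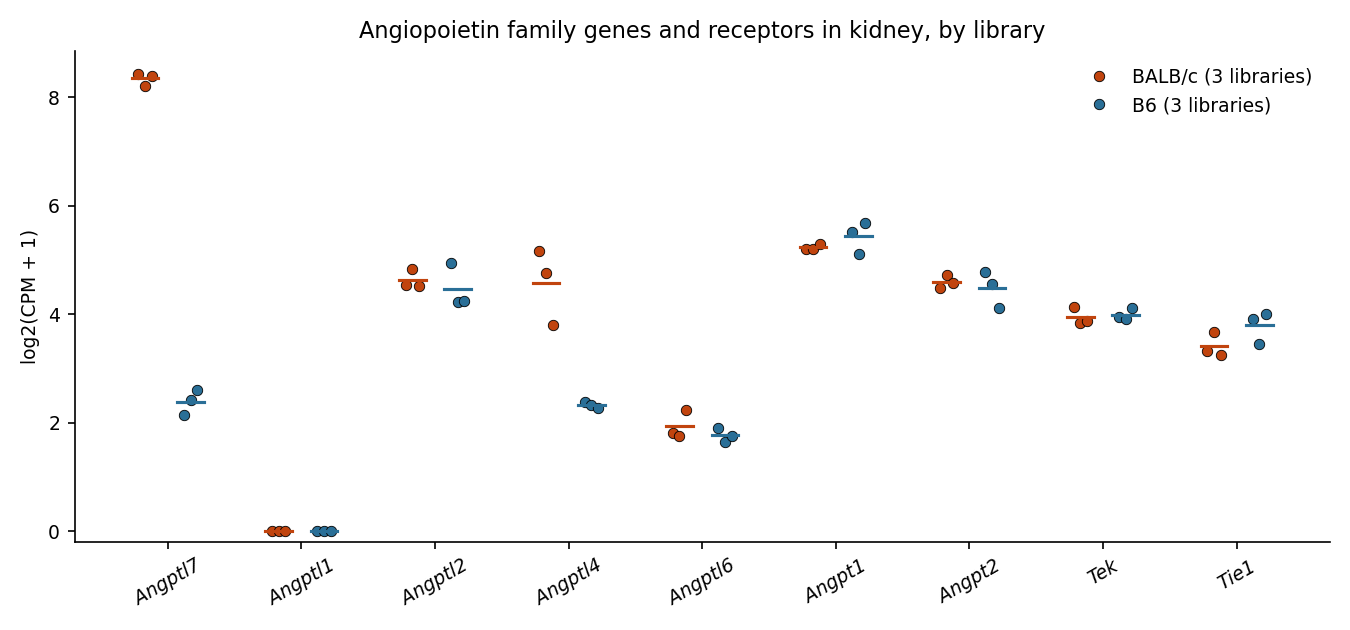
Level of each of the 9 genes on the log2(CPM + 1) scale (vertical axis) in each library, with BALB/c (red) left of B6 (blue). Points are libraries (3 per strain) and bars are means. Angptl7 and Angptl4 separate the strains, Angptl1 lies at 0 throughout, and the remaining genes overlap.

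The other angiopoietin-like genes overlapped between the strains. Angptl2, a protein linked to chronic inflammation, had 22.1, 27.6 and 21.8 CPM in BALB/c and 29.7, 17.7 and 17.8 CPM in B6, a log2 fold of 0.16 with a 95% interval of -0.27 to 0.59. The highest and the lowest value both fell in B6. Angptl6, a circulating factor made mainly by liver, had 2.52, 2.36 and 3.71 CPM in BALB/c and 2.75, 2.12 and 2.35 CPM in B6, a log2 fold of 0.17 (-0.56 to 0.89). It rests on 20 to 37 reads in each BALB/c library and 21 to 25 in each B6 library, so only a large difference could have been seen. Of the last 300 bases of Angptl6, 88.3% lie within exons of A230050P20Rik on the other strand, and no source says that counting used strand, so reads of these genes cannot be told apart. A230050P20Rik itself had 7.10 ± 0.969 CPM in BALB/c and 3.60 ± 0.501 CPM in B6 (SD, n = 3 each) and did not pass the test (log2 fold 0.81 ± 0.30, limma adjusted p = 0.101). Angptl1, an inhibitor of vessel growth, was listed at 0 in all 6 libraries, as were 5996 of the 23282 rows. A count of 0 allows up to 3 reads, which is between 0.290 and 0.354 CPM depending on the library and covers counting error only.

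Among the ligands, Angpt1 had 35.9, 36.0 and 38.2 CPM in BALB/c and 44.5, 33.4 and 50.4 CPM in B6. Its BALB/c libraries were close together and lay within the wider B6 range. The means were 36.7 ± 1.29 CPM in BALB/c and 42.8 ± 8.67 CPM in B6 (SD, n = 3 each), a log2 fold of -0.20 with a 95% interval of -0.52 to 0.13. Angpt2 had 21.2, 25.4 and 22.9 CPM in BALB/c and 26.3, 22.6 and 16.4 CPM in B6, a log2 fold of 0.11 (-0.30 to 0.51). Here too the B6 libraries enclosed all BALB/c libraries. Within a library, the log2 value of Angpt2 minus that of Angpt1 was -0.73, -0.49 and -0.72 in BALB/c and -0.74, -0.54 and -1.57 in B6. The balance of the ligands was thus set apart in B6 replicate 3, which had the highest Angpt1 and the lowest Angpt2.

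Among the receptors, Tek had 16.5, 13.3 and 13.6 CPM in BALB/c and 14.4, 14.0 and 16.4 CPM in B6, a log2 fold of -0.04 with a 95% interval of -0.48 to 0.40. The strains covered the same range. Tie1 had 9.001, 11.8 and 8.52 CPM in BALB/c and 14.1, 9.98 and 15.0 CPM in B6, a log2 fold of -0.37 (-0.89 to 0.14). BALB/c replicate 2 lay above B6 replicate 2 and the other BALB/c libraries lay below all of B6. The intervals of all 6 genes leave room for moderate differences, and none of them shows that the strains were alike.

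Markers of vessel cells and other kidney cells were read beside these values. The tubular markers of the labelled tissue, Umod, Slc12a1, Slc34a1, Lrp2, Aqp2 and Kap, were all above 138 CPM in every library. Their levels were not even, as Aqp2 had 271, 226 and 302 CPM in BALB/c and 240, 498 and 138 CPM in B6. Whether the libraries held the same parts of the kidney was not tested. Of 10 endothelial markers, such as Pecam1 and Emcn, 0 were called by limma (adjusted p under 0.05), and their summed level was 452 to 454 CPM in BALB/c and 459 to 490 CPM in B6. At an unadjusted p under 0.05 there were 2, Pecam1 and Plvap, both lower in BALB/c, and limma-voom on recovered reads called 0. Their folds were -0.30 and -0.365 with no overlap, and Plvap narrowly missed the threshold (limma adjusted p = 0.215 and 0.0510). Of 10 mural and mesangial markers, the cells that surround vessels, 1 rose (Itga8) and 1 fell (Acta2), with sums of 235 to 316 CPM in BALB/c and 280 to 379 CPM in B6. Their median fold was -0.35. At an unadjusted p under 0.05 there were 5, Acta2, Myh11, Tagln, Mcam and Itga8, all but Itga8 lower in BALB/c. Of 9 fibroblast markers 1 fell (Col1a2), with sums of 381 to 433 CPM in BALB/c and 407 to 484 CPM in B6. Their median fold was also -0.35. At an unadjusted p under 0.05 there were 3, Col1a2, Col3a1 and Pi16, all lower in BALB/c. Of 4 lymphatic markers 0 were called, 0 had an unadjusted p under 0.05 and limma-voom called 0, with sums of 41.9 to 47.3 CPM in BALB/c and 39.6 to 50.5 CPM in B6. Of 6 podocyte markers, 1 rose and 2 fell (Nphs1 and Ptpro), with sums of 444 to 478 CPM in BALB/c and 317 to 359 CPM in B6. At an unadjusted p under 0.05 there were 5, all but Nphs1 and Ptpro higher in BALB/c, and limma-voom called 3. Leaving out BALB/c replicate 1 ended the Col1a2 call (limma adjusted p up to 0.147 over all alternatives). Each highest adjusted p given in this way is over all 15 alternatives to the fit, not over the omitted libraries alone.

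Because Angptl7 is known from connective tissue and Angptl4 from fat, markers of tissue that may adhere to a kidney were read beside them. Of 6 tendon and capsule markers 3 were tested and 0 called (limma), while 1 had an unadjusted p under 0.05 and limma-voom called 0. Tnmd, which defines tendon cells, was at 0 in every BALB/c library and in B6 replicates 1 and 2, with 4 reads in B6 replicate 3. Scx, a tendon transcription factor gene, had 5.32, 10.3 and 3.41 CPM in BALB/c and 5.61, 10.6 and 0.897 CPM in B6. The tested genes Scx, Fmod and Ogn had folds of 0.37, 0.23 and -0.39. The sums of that list were 27.1 to 36.7 CPM in BALB/c and 33.5 to 40.8 CPM in B6. Adipoq, which defines fat cells, had at most 0.236 CPM in BALB/c and at most 3.33 CPM in B6, that value being in B6 replicate 2, where Angptl4 was at 4.03 CPM. Cidec, a lipid droplet gene of fat cells, had 4.07, 0 and 0 CPM in BALB/c and 0.661, 0 and 0 CPM in B6. Cfd, an adipokine gene, had 6.87, 1.18 and 2.81 CPM in BALB/c and 0.880, 18.3 and 0 CPM in B6. Plin1, of the same list, had 0.0966, 0.708 and 0 CPM in BALB/c and 0.220, 0.907 and 0 CPM in B6. Among the BALB/c libraries, Cidec and Cfd were highest in replicate 1, as was Angptl4, whereas Adipoq, Plin1 and Fabp4 were highest in replicate 2. Summed adipocyte markers were 172 to 208 CPM in BALB/c and 109 to 187 CPM in B6, mostly from Fabp4, which endothelium also expresses and which rose (log2 fold 0.48, limma adjusted p = 0.0137), which was lost on leaving out BALB/c replicate 1 or 2 or B6 replicate 1 or 3 (up to 0.213). The adrenal genes Cyp11b1, Cyp11b2 and Cyp21a1 were at 0 in every library. Sums were 7.16 to 12.1 CPM in BALB/c and 6.17 to 15.8 CPM in B6 for urothelium, and 20.1 to 22.5 CPM in BALB/c and 12.0 to 13.6 CPM in B6 for leukocytes, where Lyz2 rose. For red blood cells they were 2528 to 4636 CPM in BALB/c and 4048 to 4907 CPM in B6, where Hbb-bs fell. Hba-a1 and Alas2 of that list had folds of -0.44 and -0.33 and were not called (limma adjusted p = 0.0864 and 0.513). Whether the Hbb-bs row counts beta-globin equally in both strains was not tested. The Lyz2 call ended without BALB/c replicate 1 or 2 or without B6 replicate 2 or 3, and the Hbb-bs call without B6 replicate 1 (limma adjusted p up to 0.200 and 0.179). The part of these cells in the levels of the 9 genes was not tested.

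Several members share a feature of position that their choice did not use. Angptl7 lies on chromosome 4 (148495183 to 148500460, GRCm38, GENCODE M21) whole within Mtor, the gene of a growth-controlling kinase, on the opposite strand and with no exon overlap. Angptl1 lies in the same way within Ralgps2, Angptl2 within Ralgps1 and Angpt2 within Mcph1, so 4 of 9 members (44.4%) lie within a gene of the other strand, against 2.47% of 21938 protein-coding genes. Of the family genes outside the list, Angptl8 lies in the same way within Dock6. The family members share ancestry, so these positions are not independent of each other. Except in Angptl6, no base of the last 300 of a member lay in an exon of another gene, and none of its 50-base words was found in another gene.

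The genes around these members were measured in the same libraries. Mtor had 50.8, 42.9 and 58.0 CPM in BALB/c and 62.7, 99.99 and 61.1 CPM in B6, all BALB/c libraries below all B6 libraries. It fell by 0.52 on the log2 scale (SE 0.16, limma adjusted p = 0.0450), opposite in direction to Angptl7. That call ended under 9 of 15 alternatives, among them those without BALB/c replicate 1 or 2 and without B6 replicate 1 or 2 (limma adjusted p up to 0.278). Ralgps2, Ralgps1 and Mcph1 had folds of 0.14, 0.30 and 0.14 and were not called (limma adjusted p = 0.736, 0.763 and 0.857). Both strains were mapped to the B6 reference per the submitters' processing notes, and a loss of BALB/c reads through sequence differences from that reference was not measured.

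Genes around the members were then compared. Of 13 tested genes whose starts lie within 500 kb of the Angptl7 start, 2 rose and 1, Mtor, fell. Fbxo2 and Fbxo6, genes of neighbouring F-box proteins that recognise glycoproteins for degradation, lie at -339.8 and -348.3 kb on the chromosome coordinate. Fbxo2 had 6.58, 6.72 and 4.11 CPM in BALB/c and 1.98, 2.52 and 0.672 CPM in B6, which is 1.36 ± 0.37 on the log2 scale (SE, limma adjusted p = 0.0188). Fbxo6 had 22.9, 25.1 and 22.9 CPM in BALB/c and 16.2, 15.0 and 12.9 CPM in B6, which is 0.65 ± 0.19 on that scale (limma adjusted p = 0.0336). In both genes every BALB/c library was above every B6 library. The Fbxo2 call ended without BALB/c replicate 1 or 2 or B6 replicate 3 (limma adjusted p up to 0.1003), and the Fbxo6 call ended whichever single library was left out (up to 0.120).

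**Figure D2:**
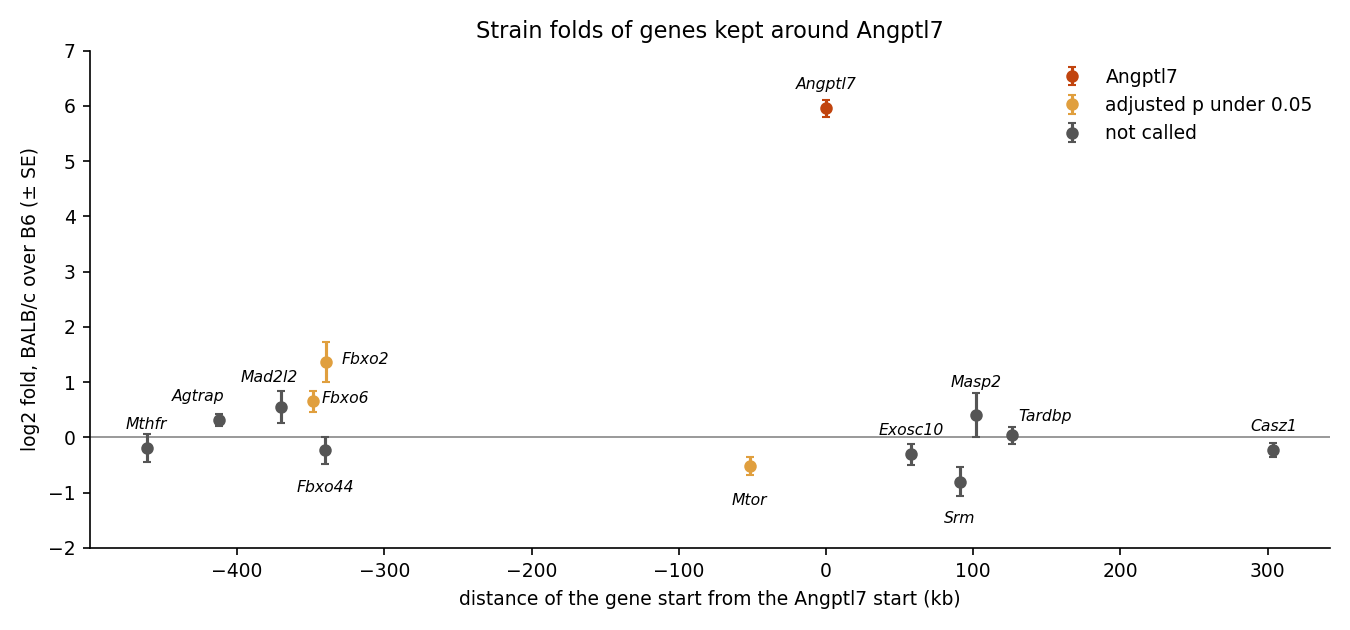
Log2 fold of BALB/c over B6 (vertical axis, bars are SE) of Angptl7 (red) and 12 of the 13 tested genes around it, by distance of their start from the Angptl7 start in kb (horizontal axis, increasing with the chromosome coordinate). Angptl7 stands at 5.96 while no other gene drawn exceeds 1.36, and Mtor lies below 0.

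Over all members, 117 tested genes lay within 500 kb of a start or overlapped a member, of which 7 rose and 3 fell (limma), 8.55% against the background of 9.09%. Besides those above, Soat1 and Tor3a rose near Angptl1 (log2 folds 0.91 and 0.76), Fbxl12 rose near Angptl6 (0.82), Jun near Tek (1.21) and Hyi near Tie1 (1.04), with limma adjusted p of 8.80e-04, 0.0356, 0.0404, 1.40e-05 and 1.29e-06. Near Angptl4, Hnrnpm and H2-K1 fell (log2 folds -0.47 and -1.62, limma adjusted p = 0.00590 and 4.00e-10). H2-K1 belongs to the MHC, where the strains carry different haplotypes. The count at these loci was 4 to 9 when 1 library was left out, the lowest without BALB/c replicate 1. It was 5 without BALB/c replicate 2 and 6 without B6 replicate 3. The calls of Tor3a, Fbxl12 and Hnrnpm each ended without BALB/c replicate 1 and without B6 replicate 1 (limma adjusted p up to 0.148, 0.172 and 0.152 over all alternatives).

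Lipoprotein lipase regulation, the process in which Angptl4 acts, was read next from a list of genes, of which 8 were tested, 1 rose and 1 fell. The median fold of the list was -0.02, where that of all genes was 0.00. Gm6484, the symbol under which Angptl8 is listed, had 4.16, 3.42 and 2.50 CPM in BALB/c and 1.87, 1.11 and 2.91 CPM in B6 and was not called (0.58 ± 0.37, limma adjusted p = 0.391). It was named after its values were seen.

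Lpl, the gene of lipoprotein lipase itself, had 476, 563 and 488 CPM in BALB/c and 1008, 538 and 1074 CPM in B6. B6 replicate 2 lay within the BALB/c range and the other B6 libraries lay far above it. The log2 fold was -0.72 ± 0.16 (SE, limma adjusted p = 0.00483), and the call ended without B6 replicate 1 (limma adjusted p up to 0.218 over all alternatives). Gpihbp1, the endothelial protein that carries lipoprotein lipase into capillaries, had 13.6, 9.91 and 10.1 CPM in BALB/c and 3.63, 7.26 and 6.17 CPM in B6. Its libraries did not overlap and it missed the threshold (log2 fold 0.90 ± 0.29, limma adjusted p = 0.0521). It was also named after its values were seen. Vldlr, Cd36 and Lmf1, a lipoprotein receptor, a fatty acid transporter and a maturation factor of lipases, had folds of -0.06, -0.38 and 0.02 and were not called (limma adjusted p = 0.823, 0.160 and 0.963). Lipc, Lipg, Apoc2 and Apoa5 lay below the filter.

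**Figure D3:**
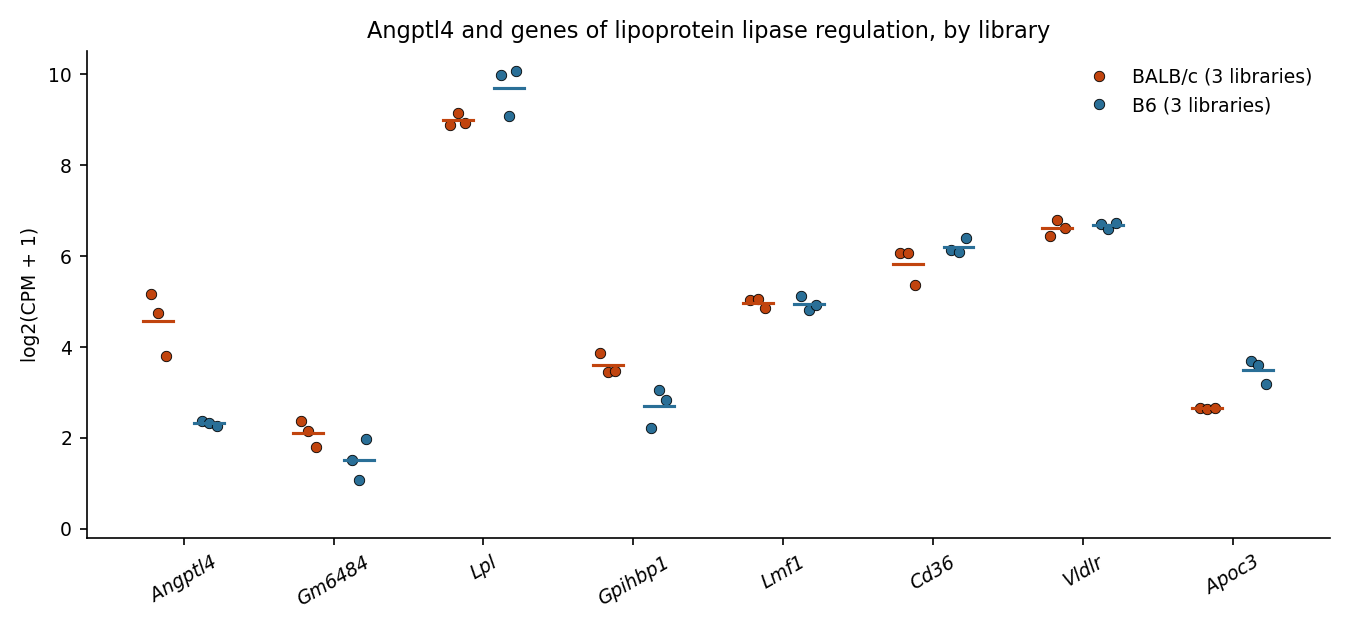
Level on the log2(CPM + 1) scale (vertical axis) of Angptl4 and 7 of the 8 tested genes of lipoprotein lipase regulation in each library, with BALB/c (red) left of B6 (blue). Points are libraries (3 per strain) and bars are means. B6 replicate 2 of Lpl lies among the BALB/c libraries, and Angptl4 separates the strains by more than any of the 7 genes.

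Targets of PPAR nuclear receptors, which induce Angptl4, moved in both directions. Of 11 tested, 3 rose and 2 fell, with a median fold of 0.16. The fatty acid hydroxylase genes Cyp4a10 and Cyp4a14 rose by 0.54 ± 0.09 and 0.38 ± 0.10 (limma adjusted p = 3.52e-04 and 0.0134), and the Cyp4a14 call ended without BALB/c replicate 1 (up to 0.225). Plin2, which coats lipid droplets, fell by 0.75 on the log2 scale (limma adjusted p = 0.00921). The Plin2 call ended without BALB/c replicate 3 or B6 replicate 3 (up to 0.171). Acadl, Cpt1a and Slc25a20, of mitochondrial fatty acid oxidation, had folds of 0.02, 0.23 and -0.12 and were not called (limma adjusted p = 0.935, 0.205 and 0.717).

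The scatter of Angptl4 among BALB/c mice had a counterpart in this list. Angptl4 was highest in BALB/c replicate 1 and lowest in replicate 3, and so were 5 of the 11 genes (45.5%), among them Cpt1a, Ehhadh, Cyp4a10 and Cyp4a14, where 16.8% of all genes had that order. Ehhadh, a peroxisomal oxidation enzyme gene, had 41.7, 20.4 and 15.7 CPM in BALB/c and 38.0, 21.5 and 39.4 CPM in B6, so it had the same order in BALB/c without being higher there than in B6. This is a description of 3 libraries, noticed after the values were seen, and it was not tested. Among B6 libraries, where Angptl4 varied by 1.10-fold, Cyp4a14 was among the genes with its order.

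**Figure D4:**
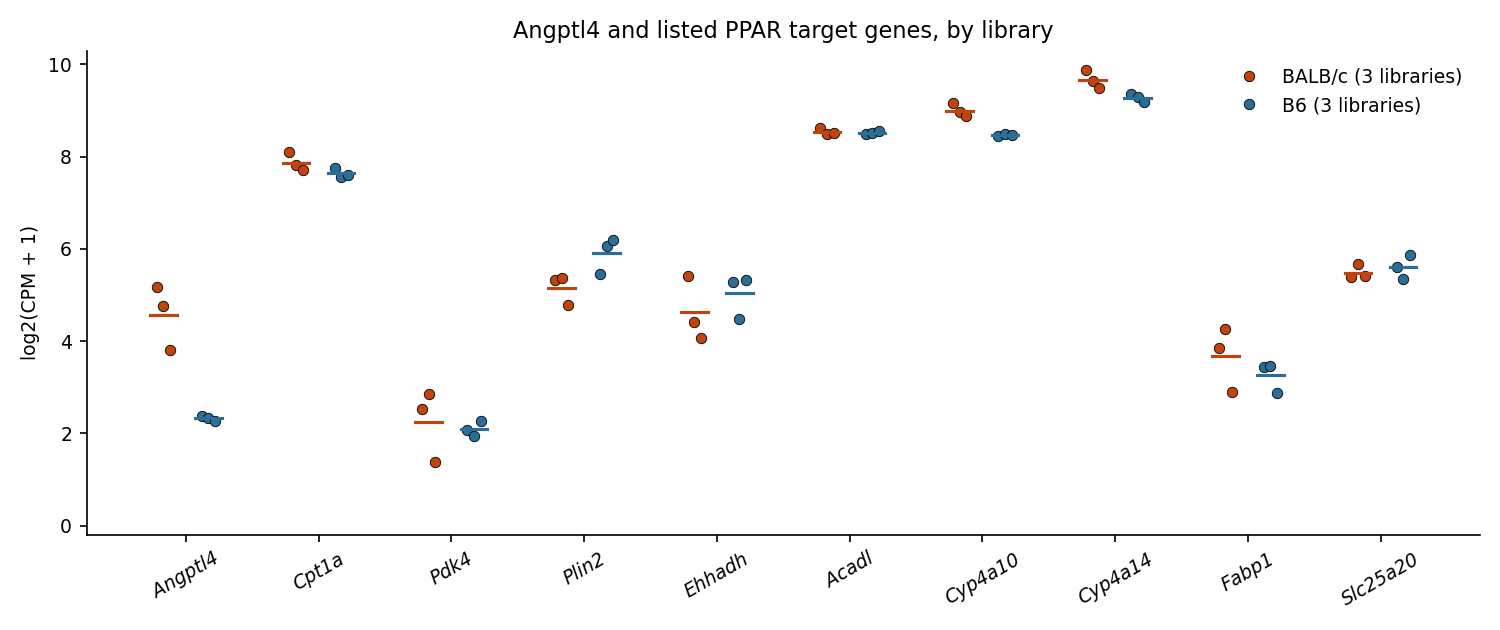
Level on the log2(CPM + 1) scale (vertical axis) of Angptl4 and 9 of the 11 tested PPAR target genes in each library, with BALB/c (red, replicates 1 to 3 from left to right) left of B6 (blue, likewise). Points are libraries and bars are means. In BALB/c, Angptl4, Cpt1a, Ehhadh, Cyp4a10 and Cyp4a14 step down over the same libraries, while Plin2 lies below B6.

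Other signals known to induce Angptl4 or Angptl7 were read from lists of hypoxia-induced and glucocorticoid-induced genes. Of 11 hypoxia-induced genes, 0 rose and 1 fell, P4ha1, a collagen prolyl hydroxylase gene (log2 fold -0.74 ± 0.16, limma adjusted p = 0.00310), with a median fold of -0.18. Ndrg1, Ldha and Bnip3 had 0.10, -0.25 and 0.01 and were not called (limma adjusted p = 0.632, 0.113 and 0.969). Of 10 glucocorticoid-induced genes, 3 rose and 0 fell, where 4.17% of all genes were called higher, with a median fold of 0.18. Cdkn1a, a cell cycle inhibitor gene that p53 also induces, rose by 1.31 ± 0.19, the transcription factor gene Zbtb16 by 1.75 ± 0.37 and Klf9 by 0.54 ± 0.11 (limma adjusted p = 4.66e-05, 0.00303 and 0.00305). Mt1, Mt2 and Sgk1 had -0.00, -0.41 and -0.25 and were not called (limma adjusted p = 0.993, 0.101 and 0.242). Fkbp5 and Tsc22d3 had -0.38 and -0.41 and were not called either (limma adjusted p = 0.262 and 0.206). Every BALB/c library of Fkbp5 was below every B6 library. Fkbp5 and Tsc22d3 were named after their values were seen.

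Of 10 tested partners of the Tie receptors, 0 rose and 1 fell, a share near the 9.09% of all genes, with a median fold of -0.05. Svep1, an extracellular matrix protein that binds Tie1, had 3.10, 2.24 and 3.61 CPM in BALB/c and 6.93, 8.16 and 6.39 CPM in B6, which is -1.05 ± 0.31 on the log2 scale (SE, limma adjusted p = 0.0360). Its libraries did not overlap. The call ended without BALB/c replicate 1 or 2 or any single B6 library and in the test on recovered reads (limma adjusted p up to 0.127). Ptprb, the endothelial phosphatase that restrains Tek, and the signalling adaptors Pik3r1 and Grb2 had folds of -0.22, -0.21 and -0.18 and were not called (limma adjusted p = 0.338, 0.318 and 0.466). Angpt4, the remaining angiopoietin, had at most 0.236 CPM in BALB/c and 0.112 CPM in B6 and lay below the filter.

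Of 9 VEGF ligands and receptors, the other main growth signal of vessels, 0 were called by limma, with a median fold of -0.01. At an unadjusted p under 0.05 there were 4, Vegfa, Figf, Kdr and Flt1, all but Vegfa lower in BALB/c, and limma-voom called 0. Figf, Kdr and Flt1 had folds of -0.78, -0.28 and -0.45 with no overlap (limma adjusted p = 0.108, 0.179 and 0.0664). Vegfa had 115, 117 and 127 CPM in BALB/c and 99.6, 89.8 and 98.8 CPM in B6, with no overlap, and missed the threshold (log2 fold 0.32 ± 0.11, limma adjusted p = 0.0696). Nrp1 and Vegfb had 0.19 and -0.01 (limma adjusted p = 0.358 and 0.969). Of 6 tested genes for reported receptors of angiopoietin-like proteins, 0 were called by limma, with a median fold of -0.08. At an unadjusted p under 0.05 there were 2, Itgb1 and Itgb3, and limma-voom called 0. Among them the integrin genes Itgb1 and Itgav had -0.20 and -0.13, and the syndecan gene Sdc4 had -0.03 (limma adjusted p = 0.218, 0.620 and 0.915). Pirb, a mouse receptor of Angptl2, and Itga5 lay below the filter.

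Genes outside the family whose proteins carry a fibrinogen-like domain, the part that angiopoietins and most angiopoietin-like proteins have in common, were read as a further list. Of 7 tested, 1 rose and 3 fell, with a median fold of -1.18. The fibrinogen chain genes Fgb and Fgg and the fibrinogen-like gene Fgl1 fell. Fgb had 0, 1.06 and 2.004 CPM in BALB/c and 11.1, 17.4 and 22.4 CPM in B6, which is -3.24 ± 0.38 on the log2 scale (SE, limma adjusted p = 2.24e-06). Fgl1 had 0, 0.944 and 0 CPM in BALB/c and 9.91, 6.25 and 8.30 CPM in B6 (-2.85 ± 0.38, limma adjusted p = 1.41e-05). Fgg had 0.0966, 3.42 and 2.004 CPM in BALB/c and 4.95, 11.9 and 7.06 CPM in B6 (-1.80 ± 0.43, limma adjusted p = 0.00806), a call lost on leaving out BALB/c replicate 1 or B6 replicate 2 (up to 0.130). Fga, the third chain, had -1.18 and was not called (limma adjusted p = 0.0571). The matrix protein gene Tnn rose by 1.17 ± 0.36 (limma adjusted p = 0.0400), with overlapping libraries, and the call was lost on leaving out BALB/c replicate 2 or 3 or B6 replicate 1 or 3 (up to 0.285). Tnc and Fgl2 had 0.33 and 0.04 (limma adjusted p = 0.675 and 0.965).

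Across these 8 lists, 16 of 72 tested genes were called, 8 in each direction, which is 22.2% against 9.09% of all genes. With a variance prior that does not follow the level, 2 rose and 6 fell. The lists were chosen with earlier results of these data known, and their genes are related by design. That prior ended calls among them, including those of Lpl, Fgg, Tnn, Plin2, Cyp4a10, Cyp4a14, P4ha1 and Klf9.

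The profile of Angptl7 over the 6 libraries was compared with those of 8708 other genes of at least 10 CPM on average, each centred on its own mean. The nearest by the root mean square difference of log2 values were Havcr1, the tubular injury gene KIM-1 (0.31), Spink6 (0.58), Npy (1.11), Cyp4a12a (1.12) and C3 (1.32). Havcr1 had 74.9, 107 and 74.2 CPM in BALB/c and 0.661, 0.302 and 0.672 CPM in B6. Among the BALB/c libraries Havcr1 was highest in replicate 2, where Angptl7 was lowest, so the likeness lies in the gap between the strains. All of these genes separate the strains widely, which the measure selects for.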

How the data were processed

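RNA was measured in kidney of BALB/c and B6 mice, 3 libraries each. Total RNA taken up in Trizol went into a Lexogen QuantSeq library preparation, per the labels' protocols. Bowtie2, bedtools and mm10 are named in the submitters' processing notes. Their versions, the gene annotation, strand use and the treatment of reads with several alignments are not stated there. The values deposited by the authors are on a log2 scale with 23282 rows per library. Raised from that scale and lowered by 1, they summed to between 980188 and 1043599, so they are read as log2(CPM + 1) with a further scaling per library. Low values (up to 20 reads) came out as whole reads for 100% of genes in every library, to within 0.1 read. Reads recovered in this way came to 8310605 to 10416023 per library, of which the 45S ribosomal row took 12.7% to 15.6%.

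The deposited log2 values of 13317 genes were fitted with limma 3.58.1 (R 4.3.3), with strain as the sole term and a variance prior that follows the level. They were tested two-sided, with Benjamini-Hochberg adjustment over those genes, called at an adjusted p under 0.05. SE and intervals come from that fit, whose prior gives 18.4 of its degrees of freedom beside 4 from the libraries. Libraries of a strain were distinct (chi-square of 7.75 to 16.3 per degree of freedom between pairs). The series counts 3 mice per strain, and p-values measure the spread between these libraries. The first principal component (45.2% of variance) separated the strains.

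Gene positions are those of GENCODE M21 (GRCm38, the same assembly as mm10). Shared 3′ ends were sought as 50-base words, taken every 5 bases from the last 300 of the longest coding transcript. Named genes were all members, all called genes of the lists and of the 500 kb windows, up to 3 uncalled genes of a list with the highest mean, all genes overlapping a member and the 5 nearest profiles. The members and lists were chosen with earlier results of these data known. Alternatives are listed in the closing section. Same-numbered libraries of the strains were treated as unpaired. A few genes covered by that rule are left out of the text and the figures and are not reported here.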

Additional observations from a re-analysis of the deposited data

How the results depend on the processing

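Angptl7 and Angptl4 stayed higher in BALB/c under all 15 alternatives, with folds of 5.16 to 6.25 and 1.64 to 2.64. Of the 8 members tested, 6 kept the sign of their fold, Angpt2 and Tek did not, and no called fold changed sign. Of 40 other called genes of the lists, loci and nearest profiles, 16 were called under all alternatives. A variance prior with no trend gave 493 calls over all genes against 1211, 8 against 16 in the pathway lists (2 higher and 6 lower, against 8 and 8) and 4 against 10 at the members' loci. No filter beyond 1 read gave 9 in the lists and 5 at the loci. Leaving out 1 library gave 797 (without BALB/c replicate 1) to 1138 calls over all genes, 806 without B6 replicate 1, 12 to 16 in the lists and 4 to 9 at the loci. Fitting the replicate number as a replicate block gave 977 calls over all genes and 6 at the loci. The labels do not say whether the numbers pair the libraries. Same-numbered libraries correlated at 0.01, -0.06 and -0.08 in their deviations from the strain means, which does not settle it with 3 libraries per strain. Scaling to total reads moved the share of higher calls to 51.5%, against 45.8%, and other settings were TMM factors, a mean of at least 5 CPM and pseudocounts of 0.5 and 5 CPM. limma-voom on recovered reads was added after seeing the data and gave 1116 calls. The planned edgeR and DESeq2 tests were not used, since the files hold log2 values. Low genes such as Angptl6 are limited by depth. The cause of the lost calls was not tested.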
